A study of Mus musculus with 241 samples.

Results

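DNA replication genes encode the proteins that copy chromosomal DNA in S phase. They were followed here through the first stages of T-cell development in the mouse thymus, as 40 genes listed by symbol, with no threshold on measured values. All 40 were found in the bulk table (24506 genes), the C1 single-cell table (43346 genes) and the 10x gene lists (27998 genes), and all 40 passed the filters on low values (12112 genes in bulk, 10651 in 10x). They fall into 7 roles: the MCM helicase (Mcm2 to Mcm7), origin licensing and helicase activation (Cdc6, Cdt1, Gmnn, Mcm10, Cdc45, Gins1, Gins2), polymerases and primase (Prim1, Pola1, Pola2, Pold1, Pole), clamp, clamp loader and strand processing (Pcna, Rfc2 to Rfc5, Fen1, Lig1, Rpa2), nucleotide supply and uracil removal (Rrm1, Rrm2, Tyms, Dut, Ung), chromatin on new DNA and histone mRNA (Chaf1a, Chaf1b, Uhrf1, Slbp), and S-phase entry and checkpoint (E2f1, Ccne1, Ccne2, Clspn, Usp1).

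As background, replication starts when Cdc6 and Cdt1 load the MCM ring onto origins in G1. Cdc45 and the GINS complex then turn the ring into a moving helicase, and Mcm10 takes part in that step. Primase and polymerase alpha start new strands, the RFC complex loads the PCNA clamp that holds the other polymerases on DNA, and Fen1 and Lig1 join the fragments. Many of these genes are transcribed before and during S phase under E2F factors. In the thymus, early T-cell progenitors (ETPs) and the DN2 cells that follow them divide several times before and during commitment to the T lineage, which is marked by the transcription factor Bcl11b.

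The series profiled Kit+ CD44+ lineage-negative thymocytes of C57BL/6 mice by bulk RNA-seq (12 libraries), 10x Chromium v2 (2 libraries) and the Fluidigm C1 chip (1 library per cell). The bulk libraries came from mice of genotype Bcl11byfp/yfp, in which a yellow fluorescent reporter sits at Bcl11b, so every bulk group, the ETPs included, carried the reporter allele on both chromosomes. ETPs lack surface CD25 and were sorted as Flt3+ ETP (2 libraries), Flt3- ETP (2 libraries) or without regard to Flt3 (total ETP, 2 libraries). DN2a cells carry CD25 and were split by the reporter, without it in Bcl11b- DN2a (3 libraries) and with it in Bcl11b+ DN2a (3 libraries). The single cells were wild-type and were taken from the whole gate. The mice were untreated, ages are not given in the sources used here, and nothing states that libraries of a group came from separate animals, so p-values measure the spread between libraries, which may be technical.

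Because many replication genes are known E2F targets, the 250 bases before their RefSeq start sites were searched on both strands for 4 E2F words (TTTCCCGC, TTTGGCGC, TTTCGCGC and TTTGCCGC). The RefSeq table (GRCm38.p6) held 37 promoters of 32 of the 40 genes. A word was found in 7 of these promoters (18.9%), each of a different gene, against 611 of all 32851 promoters of that length (1.86%). The members' promoters had a higher GC content (median 61.2% against 52.4%), and among all promoters with a GC content of 52.4% to 67.2%, the interquartile range of the members, 2.93% held a word. Promoters with at least 2 words were 2 of 37 for the members (5.41%), against 0.0548% of all promoters. These were Mcm5 and Mcm6, each with TTTCGCGC and TTTGGCGC on opposite strands and sharing bases, and both matches of such a pair were counted. The 7 stretches are shown since they are the replication promoters that hold a word, written 5′ to 3′ on the gene's strand, with the matched bases in capitals and 25 bases on either side where the window allows:
Mcm5 (chr8:75109331-75109392, plus strand): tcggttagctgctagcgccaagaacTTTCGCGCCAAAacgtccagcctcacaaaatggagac
Mcm6 (chr1:128359720-128359840, minus strand): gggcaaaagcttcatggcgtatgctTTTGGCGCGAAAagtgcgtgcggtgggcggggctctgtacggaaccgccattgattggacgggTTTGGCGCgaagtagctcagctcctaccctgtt
Mcm7 (chr5:138172016-138172073, minus strand): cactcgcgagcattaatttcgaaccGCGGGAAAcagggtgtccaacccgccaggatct
Cdc6 (chr11:98907988-98908045, plus strand): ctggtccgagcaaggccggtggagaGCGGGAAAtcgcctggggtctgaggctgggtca
Pola1 (chrX:93632261-93632318, minus strand): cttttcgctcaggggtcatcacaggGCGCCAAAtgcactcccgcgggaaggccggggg
Rfc3 (chr5:151651209-151651243, minus strand): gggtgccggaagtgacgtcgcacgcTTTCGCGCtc
Uhrf1 (chr17:56304103-56304160, plus strand): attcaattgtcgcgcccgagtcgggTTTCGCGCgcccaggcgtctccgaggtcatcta

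The matches lay at different distances from the start site. In Rfc3 the word began 10 bases before it and in Mcm6 the nearest word 47 bases before it, while the other 8 of the 10 matches lay more than 100 bases away. The CCAAT word, the core of the NF-Y box, stood in 20 of the 37 promoters (54.1%) against 33.8% of all promoters. The CHR words TTTGAA and TTCGAA, found in promoters of mitotic genes, stood in 5 of 37 (13.5%) against 17.1%. A match describes these letters only, and promoters without one may hold other forms of the sites.

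Depth on gene models was 21206645 to 38537039 reads per bulk library. NEBNext Ultra was used for 8 of the 12 libraries and SMART-Seq v4, which amplifies cDNA, for 4, and library numbers in the labels fall into 3 runs: a first run of 4 NEBNext libraries, a second of the 4 SMART-Seq v4 libraries and a last run of 4 NEBNext libraries that include both total ETP libraries. Values below are listed with the NEBNext libraries first and the SMART-Seq v4 library last. Among genes of the gate, Kit measured 21.7 FPKM or more and Cd44 8.22 to 46.7 FPKM over the 12 libraries. The first-run libraries stood apart by markers of later T cells: the summed FPKM of 8 such genes was 96.4 in Flt3+ ETP, 72 in Flt3- ETP and 36.6 in Bcl11b- DN2a of the first run, against 1.73 to 10.3 in the other 6 libraries of those populations and of total ETP. Bcl11b itself measured 5.76, 4.54 and 6.11 FPKM in those 3 libraries, and Il2ra, which encodes CD25, measured 17.5 and 18.4 FPKM in the 2 first-run ETP libraries, which were sorted as CD25-negative. A list of 12 granulocyte and monocyte genes summed to 986 and 1800 FPKM in Flt3- ETP, 261 and 356 in Flt3+ ETP, 512 and 494 in total ETP and 26.3 to 244 in the 6 DN2a libraries. Elane, which defines granulocyte precursors, measured 517 FPKM in the SMART-Seq v4 library of Flt3- ETP, 45.3 and 38.8 FPKM in total ETP, 1.52 and 4.5 FPKM in Flt3+ ETP and at most 0.515 FPKM in the DN2a libraries. Results that rest on the first-run libraries are given with and without them.

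All 40 genes were expressed well above the median gene, from the 74.2 to the 99.3 percentile of mean FPKM over the bulk table. Pcna, the sliding clamp, had the highest mean (360 FPKM) and Mcm6, a helicase subunit, the second highest (228 FPKM). Ccne1, a cyclin that drives entry into S phase, had the lowest mean (8.52 FPKM) and Pole, the catalytic subunit of polymerase epsilon, the second lowest (10.6 FPKM). FPKM are per length of the gene model, but the kit moved single genes by up to several fold. The kit effect (SMART-Seq v4 minus NEBNext, log2) ran from -2.26 for Uhrf1 to 2.39 for Slbp, so the order of levels between genes holds for this mix of kits. Populations were therefore compared with the kit as a term, and per-library values are best read within a kit.

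Rrm2, the regulated subunit of ribonucleotide reductase (chr12:24708254-24714146 on mm10), measured 45.6 and 160.7 FPKM in Flt3+ ETP, 27.9 and 135.4 in Flt3- ETP, 42.4 and 47.8 in total ETP, 53.9, 54.01 and 192.99 in Bcl11b- DN2a, and 92.9, 108.1 and 308 in Bcl11b+ DN2a. Within either kit, Bcl11b+ DN2a was highest, Bcl11b- DN2a next and Flt3- ETP lowest, with no overlap. Pcna (chr2:132249286-132253180) measured 278 and 353 FPKM in Flt3+ ETP, 249 and 341 in Flt3- ETP, 282 and 299 in total ETP, 336, 329 and 402 in Bcl11b- DN2a, and 473, 454 and 526 in Bcl11b+ DN2a. Its order within each kit was that of Rrm2, over a narrower range. Mcm6 measured 168.6 and 320.4 FPKM in Flt3+ ETP, 120.4 and 252 in Flt3- ETP, 180.8 and 177.5 in total ETP, 191.1, 216.6 and 305 in Bcl11b- DN2a, and 219.4, 234 and 346 in Bcl11b+ DN2a. Flt3- ETP was again lowest and Bcl11b+ DN2a highest in each kit, but the SMART-Seq v4 library of Flt3+ ETP stood above that of Bcl11b- DN2a. Ccne1 measured 3.69 and 12.5 FPKM in Flt3+ ETP, 5.13 and 8.17 in Flt3- ETP, 4.31 and 3.44 in total ETP, 6.58, 6.63 and 13.8 in Bcl11b- DN2a, and 8.57, 9.75 and 19.7 in Bcl11b+ DN2a. Both DN2a populations were above the ETP libraries of the same kit. Pole measured 12.2 and 3.25 FPKM in Flt3+ ETP, 5.79 and 1.87 in Flt3- ETP, 13.6 and 13.3 in total ETP, 15.4, 16.1 and 2.87 in Bcl11b- DN2a, and 17.4, 21.6 and 3.47 in Bcl11b+ DN2a. In this gene the NEBNext values were the higher ones, and Flt3- ETP was lowest in each kit.

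**Figure D1:**
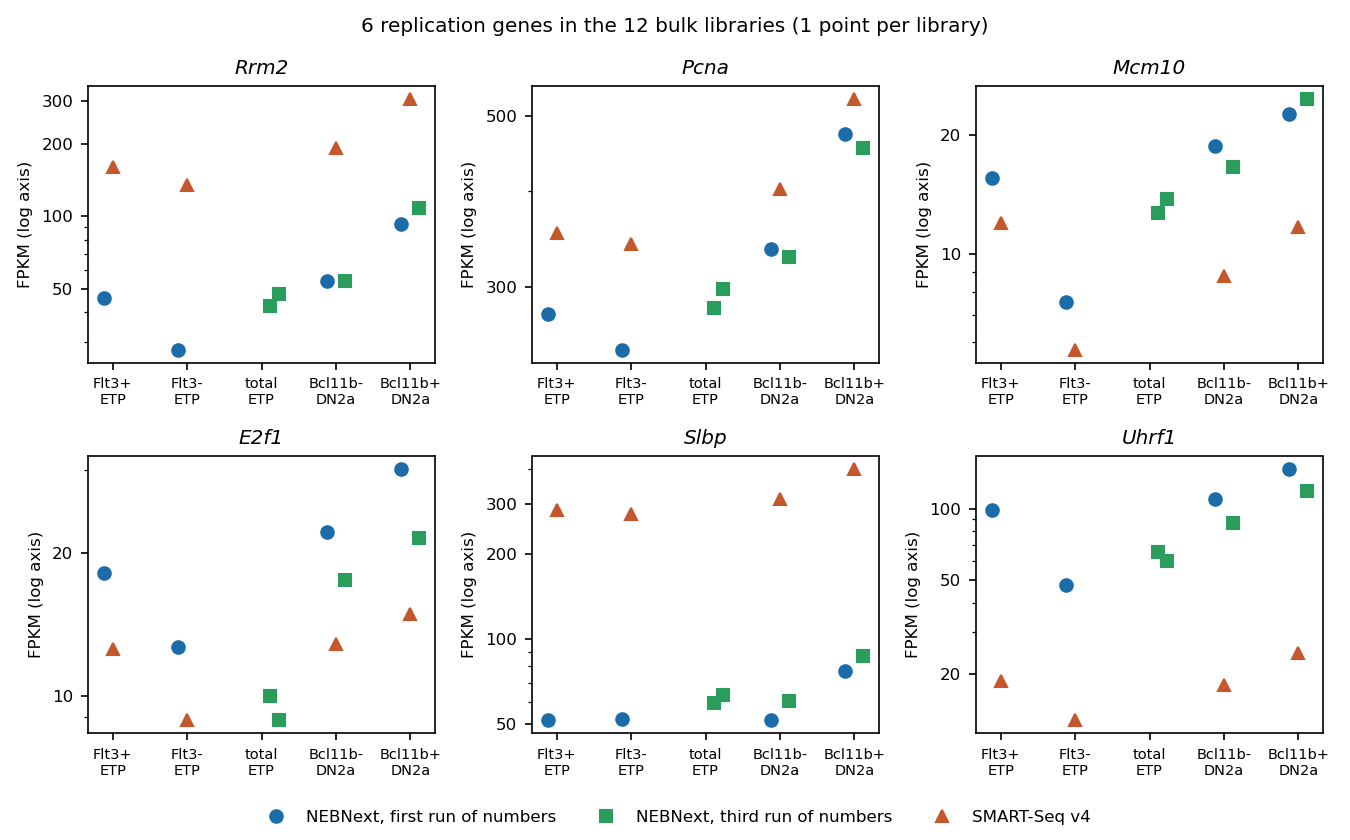
FPKM of 6 replication genes (log axes) in the 12 bulk libraries by population, 1 point per library, with colour and shape for the kit and the run of library numbers. In each kit the Bcl11b+ DN2a point of Rrm2 stands above the points of the other populations (308 FPKM in the SMART-Seq v4 library), while Slbp and Uhrf1 show the size of the kit effect in opposite directions.

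Flt3+ and Flt3- ETP were compared to ask how the genes stand as progenitors lose the cytokine receptor Flt3. None of the 40 genes passed the test in this comparison (limma, Benjamini-Hochberg adjusted p under 0.05 over 12112 genes; 0 with edgeR on recovered reads), in which 0.685% of all genes tested were called. With the run of library numbers as a block in place of the kit, 11 members were called, each lower in Flt3- ETP (4.85% of all genes), and with the replicate block 3, each lower (2.25%). Values leaned toward lower expression in Flt3- ETP: 36 of 40 had a negative difference, with a median of -0.41 on the log2(FPKM + 1) scale, against 8284 of 12112 genes and a median of -0.15. At an unadjusted p under 0.05 there were 23 of the 40 with limma and 15 with edgeR, against 2123 and 1979 of the 12112 genes. Differences ran from -0.96 for Mcm10 to 0.05 for Rfc2, a clamp loader subunit. In both runs that hold the 2 populations, 29 of 40 genes were lower (72.5%, against 45.3% of all genes).

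Mcm10 (chr2:4990724-5012791), which helps the helicase start unwinding, had the most negative difference. It measured 15.6 and 12.02 FPKM in Flt3+ ETP, 7.55 and 5.72 in Flt3- ETP, 12.7 and 13.8 in total ETP, 18.8, 16.6 and 8.78 in Bcl11b- DN2a, and 22.6, 24.8 and 11.7 in Bcl11b+ DN2a. The Flt3- ETP libraries were the lowest of their kits, and the difference from Flt3+ ETP was -0.96 ± 0.19 (SE) with an adjusted p of 0.0575. By role, the median difference was -0.52 for the MCM helicase, -0.57 for polymerases and primase, and -0.14 for the clamp, clamp loader and strand processing genes, with 0 called in each. Of 26 genes of mitosis, 8 fell in the same comparison with limma (1 with edgeR, 17 with the replicate block), among them Kif20a, Racgap1, Bub1b and Tpx2, and the list's median was -0.86.

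The result of this comparison depended on single libraries. Leaving out the SMART-Seq v4 library of Flt3- ETP gave 15 members called, each lower in Flt3- ETP, with 13.3% of all genes called, while leaving out any other of the 4 libraries gave 0. Without the first-run libraries 9 members were called, each lower (4.68% of all genes). The granulocyte list was 986 and 1800 FPKM in Flt3- against 261 and 356 in Flt3+ ETP, and the part of these cells in the difference was not tested. In bulk RNA, fewer cycling cells and less replication RNA per cell cannot be told apart.

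From Flt3- ETP to Bcl11b- DN2a, the step at which CD25 appears, 9 of the 40 genes rose and none fell, where 3.97% of all genes tested were called. The 9 were Mcm10, Cdc6, Rrm2, Clspn, Uhrf1, Rfc5, Pole, Mcm7 and Chaf1b, at least 1 from every role. The difference was positive for 39 of 40 genes, with a median of 0.51 on the log2(FPKM + 1) scale, against 7535 of 12112 genes and a median of 0.12. It ran from -0.01 for Gins2, a GINS subunit, to 0.95 for Pola1, the catalytic subunit of polymerase alpha, which did not pass (adjusted p = 0.0555). The Flt3- ETP libraries are shared with the comparison against Flt3+ ETP, so this rise is not independent of that result. In the first-run and SMART-Seq v4 libraries the 40 genes summed to 2076 and 3386 FPKM in Flt3+ ETP. The sums were 1572 and 2885 in Flt3- ETP, and 2398 and 3497 in Bcl11b- DN2a.

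Mcm10 rose by 0.87 ± 0.18 (SE, adjusted p = 0.0185). Cdc6, which loads the MCM ring, measured 12.8 and 21.4 FPKM in Flt3+ ETP, 7.83 and 14.6 in Flt3- ETP, 12.5 and 12.4 in total ETP, 16.9, 16.1 and 20.4 in Bcl11b- DN2a, and 23.7, 25.9 and 30.04 in Bcl11b+ DN2a. Within each kit Flt3- ETP was lowest and Bcl11b+ DN2a highest, and the rise from Flt3- ETP was 0.75 ± 0.16 (adjusted p = 0.0208). Clspn, which carries the replication checkpoint signal to the kinase Chk1, measured 11.8 and 4.70 FPKM in Flt3+ ETP, 6.85 and 3.27 in Flt3- ETP, 10.9 and 11.5 in total ETP, 13.2, 13.2 and 5.59 in Bcl11b- DN2a, and 20.5, 23.9 and 7.30 in Bcl11b+ DN2a. The order was again Flt3- ETP lowest and Bcl11b+ DN2a highest, with a rise of 0.73 ± 0.16 (adjusted p = 0.027), and Rrm2 rose by 0.72 ± 0.15 (adjusted p = 0.0211). Uhrf1, which keeps DNA methylation on new strands, measured 99.1 and 18.7 FPKM in Flt3+ ETP, 47.5 and 12.7 in Flt3- ETP, 65.5 and 59.97 in total ETP, 110.1, 87.2 and 17.9 in Bcl11b- DN2a, and 147.1, 119.2 and 24.5 in Bcl11b+ DN2a. The first-run Flt3- ETP library stood at less than the Flt3+ library of its run, and the rise to Bcl11b- DN2a was 0.77 ± 0.17 (adjusted p = 0.0276). Mcm7 was the helicase subunit that passed, with 138.9 and 129.005 FPKM in Flt3+ ETP, 87.7 and 97.2 in Flt3- ETP, 127.1 and 116.99 in total ETP, 174.2, 169.1 and 119.2 in Bcl11b- DN2a, and 195.1, 184.5 and 141.1 in Bcl11b+ DN2a. Its values in Flt3- ETP were below every other library, and it rose by 0.67 ± 0.15 (adjusted p = 0.0346).

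The difference between these populations was larger in the first run (median 0.66 over the 40 genes, against 0.22 over all genes) than in the second (0.29 against -0.02), and 36 of 40 genes were higher in both runs (90%, against 36.2% of all genes). The count of 9 did not survive every omission of a library. It was 0 without replicate 1 of Flt3- ETP or replicate 1 of Bcl11b- DN2a, 2 and 3 without replicate 2 or 3 of Bcl11b- DN2a, and 19 without replicate 2 of Flt3- ETP (21.1% of all genes). Without the first-run libraries 2 members were called (6.34% of all genes) and the median was 0.31. The granulocyte genes moved the other way, from 986 and 1800 FPKM in Flt3- ETP to at most 244 in Bcl11b- DN2a, and their part was not tested. A list of 10 erythroid, megakaryocyte and mast cell genes, led by Cpa3, summed to 41.7 to 358 FPKM in the 6 ETP libraries and to 331 to 1120 FPKM in the 6 DN2a libraries. Its part in the differences between ETP and DN2a was not tested either.

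From Bcl11b- to Bcl11b+ DN2a, the step at which the commitment factor comes on, 4 of 40 genes rose and none fell, where 2.79% of all genes tested were called. The 4 were Rrm2, Tyms, Pcna and Slbp, and all 40 differences were positive, from 0.04 for Rfc2 to 0.81 for Rrm2, with a median of 0.33 against -0.04 over all genes (5045 of 12112 positive). Libraries of the same number were deviating together in these 2 populations, so the test was repeated with the number as a block. It then called 11 members, each higher, and 4.81% of all genes, with Rfc4, Gins2, Clspn, Cdc6, Rpa2, Gmnn and Lig1 beside the 4. Of the 40 genes, 39 were higher in all 3 runs that hold both populations (97.5%, against 20.4% of all genes). The run medians were 0.34, 0.32 and 0.39.

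Rrm2 rose by 0.81 ± 0.13 (SE, adjusted p = 0.00736). Tyms, the thymidylate synthase, measured 12.9 and 48.7 FPKM in Flt3+ ETP, 8.69 and 41.7 in Flt3- ETP, 11.6 and 11.9 in total ETP, 12.99, 13.9 and 52.4 in Bcl11b- DN2a, and 19.9, 21.6 and 73.7 in Bcl11b+ DN2a. Bcl11b+ DN2a was highest in each kit and Flt3- ETP lowest, and the rise was 0.56 ± 0.12 (adjusted p = 0.0252). Pcna rose by 0.45 ± 0.10 (adjusted p = 0.0383). Slbp, which binds the stem-loop of replication-dependent histone mRNAs, measured 51.5 and 286 FPKM in Flt3+ ETP, 51.9 and 276 in Flt3- ETP, 59.6 and 63.2 in total ETP, 51.8, 60.1 and 312 in Bcl11b- DN2a, and 77.1, 87.3 and 398 in Bcl11b+ DN2a. Its NEBNext values overlapped among the 4 other populations and were higher in Bcl11b+ DN2a, by 0.48 ± 0.11 over Bcl11b- DN2a (adjusted p = 0.0413). No MCM subunit passed, with differences of 0.16 to 0.33, and none of the 5 polymerase and primase genes did, with 0.10 to 0.33. At an unadjusted p under 0.05 there were 1 of 6 and 0 of 5 with limma, against 7 of 7 licensing and helicase activation genes, of which 0 passed after adjustment. With edgeR the counts at an unadjusted p under 0.05 were 3 of 6, 2 of 5 and 7 of 7, and 0, 0 and 1 passed after adjustment. Over all 12112 genes, 1388 had an unadjusted p under 0.05 with limma and 1654 with edgeR. With limma and the block, 3 licensing and helicase activation genes passed and again none of the MCM, polymerase and primase genes.

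When any one of the 6 libraries was left out, Rrm2 alone was called (adjusted p 0.0186 to 0.0431). Without the first-run libraries 16 members were called (10.3% of all genes). Of the mitosis list, 7 of 26 rose in this comparison (16 with the block), with a median of 0.54. The later T-cell list summed to 50.8 FPKM or more in Bcl11b+ DN2a and 3.94 to 36.6 in Bcl11b- DN2a, and its part in the result was not tested.

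Against total ETP, sorted without regard to Flt3, 13 of 40 genes were higher in Bcl11b- DN2a and none lower, where 15.6% of all genes tested were called. They were E2f1, Fen1, Rfc2, Chaf1b, Mcm2, Ung, Cdt1, Pola2, Pold1, Chaf1a, Mcm5, Uhrf1 and Cdc45. Here 33 of 40 differences were positive with a median of 0.35, against 6033 of 12112 and 0.00. The most negative difference was that of Usp1, a deubiquitinase of PCNA and of the Fanconi pathway (-0.45 ± 0.23, adjusted p = 0.177). Both total ETP libraries belong to the last run, in which 35 of 40 genes were higher in Bcl11b- DN2a (87.5%, against 52.7% of all genes).

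E2f1 (chr2:154559400-154569892), an activating E2F factor, measured 18.2 and 12.6 FPKM in Flt3+ ETP, 12.7 and 8.87 in Flt3- ETP, 9.97 and 8.88 in total ETP, 22.1, 17.6 and 12.8 in Bcl11b- DN2a, and 30.1, 21.6 and 14.9 in Bcl11b+ DN2a. Total ETP was lowest among NEBNext libraries, and E2f1 was higher in Bcl11b- DN2a by 1.00 ± 0.17 (adjusted p = 0.00551). Fen1, the flap endonuclease of Okazaki fragments, measured 42.9 and 111.6 FPKM in Flt3+ ETP, 43.7 and 86.4 in Flt3- ETP, 33.1 and 28.7 in total ETP, 56.8, 46.6 and 112.3 in Bcl11b- DN2a, and 67.3, 57.7 and 137.2 in Bcl11b+ DN2a. It too was lowest in total ETP, with a difference of 0.71 ± 0.15 (adjusted p = 0.0126). Rfc2 measured 82.1 and 197.8 FPKM in Flt3+ ETP, 88.03 and 198.7 in Flt3- ETP, 70.7 and 59.05 in total ETP, 110.05, 97.3 and 222.4 in Bcl11b- DN2a, and 117.3, 94.9 and 233 in Bcl11b+ DN2a. The DN2a populations overlapped each other and lay above total ETP, by 0.65 ± 0.14 for Bcl11b- DN2a (adjusted p = 0.0145). Chaf1b, a subunit of the CAF-1 histone chaperone, measured 24.8 and 53.7 FPKM in Flt3+ ETP, 16.7 and 47.2 in Flt3- ETP, 17.5 and 16.8 in total ETP, 29.9, 25.2 and 64.6 in Bcl11b- DN2a, and 35.5, 31.5 and 74.02 in Bcl11b+ DN2a. Total ETP and Flt3- ETP of the NEBNext kit were alike in level, and Bcl11b- DN2a was above total ETP by 0.64 ± 0.14 (adjusted p = 0.0154).

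This comparison also leaned on single libraries. The count was 2 without replicate 1 of total ETP (3.31% of all genes) and 0 without its replicate 2 (1.71%). It was 1 without replicate 1 of Bcl11b- DN2a (3.09%), 14 without its replicate 2 (23.9%) and 6 without its replicate 3 (6.67%). Without the first-run libraries it was 22 (27% of all genes). The fit held no term for the run, and the other Bcl11b- DN2a libraries came from other runs. Population and run are thus mixed in part in this comparison. With the run of library numbers as the block in place of the kit, fewer members were called than in the main fit, as listed with the other settings below.

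From Flt3+ ETP to Bcl11b+ DN2a, the widest span of stages in the sort, 12 of 40 genes were higher and none lower, where 11.3% of all genes tested were called. The Bcl11b+ DN2a libraries are shared with the comparison against Bcl11b- DN2a, so its values are not independent of that result. The 12 were Rrm2, Pcna, Rfc4, Dut, Tyms, Slbp, Clspn, Cdc6, Ccne1, Cdc45, Ccne2 and Gmnn. They held 3 of 5 nucleotide supply and uracil removal genes, 3 of 5 S-phase entry and checkpoint genes, 3 of 7 licensing and helicase activation genes, and with limma no MCM, polymerase or primase gene. With edgeR 2 of 6 MCM genes and 1 of 5 polymerase and primase genes passed. The difference was positive for 39 of 40 genes with a median of 0.41, against 5499 of 12112 and -0.03. In both runs that hold the 2 populations, 33 of 40 genes were higher (82.5%, against 25.8%).

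Rrm2 was higher by 1.07 ± 0.15 (SE, adjusted p = 0.000668) and Pcna by 0.68 ± 0.11 (adjusted p = 0.00215). Rfc4, a clamp loader subunit, measured 22.01 and 125.8 FPKM in Flt3+ ETP, 24.3 and 120.8 in Flt3- ETP, 23.5 and 27.97 in total ETP, 25.04, 26.5 and 146.01 in Bcl11b- DN2a, and 35.8, 39.6 and 180.3 in Bcl11b+ DN2a. The other populations overlapped among NEBNext libraries, and Bcl11b+ DN2a stood above them, by 0.65 ± 0.13 over Flt3+ ETP (adjusted p = 0.00682). Dut, which breaks down dUTP so that uracil is kept out of DNA, measured 49.97 and 120.96 FPKM in Flt3+ ETP, 52.3 and 120.1 in Flt3- ETP, 51.6 and 50.4 in total ETP, 56.4, 61.3 and 145.1 in Bcl11b- DN2a, and 77.005, 82.3 and 165.5 in Bcl11b+ DN2a. The ETP libraries lay close together in each kit, Bcl11b- DN2a above them and Bcl11b+ DN2a higher again, by 0.58 ± 0.12 over Flt3+ ETP (adjusted p = 0.00751). Ccne1 and Ccne2, the E-type cyclins, were higher by 0.86 ± 0.19 (adjusted p = 0.0119) and 0.77 ± 0.20 (adjusted p = 0.0303). None of 26 mitosis genes passed in this comparison (limma; 1 at an unadjusted p under 0.05, and 0 passed with edgeR, 9 at an unadjusted p under 0.05), and their median was 0.18. Over all 12112 genes, 2788 had an unadjusted p under 0.05 with limma and 3283 with edgeR.

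The count was 1 without replicate 1 of Flt3+ ETP (5.76% of all genes) and 6 without its replicate 2 (6.54%). Without any one Bcl11b+ DN2a library it was 8 to 10 (7.19% to 10.6%). Without the first-run libraries it was 19, of which 1 was lower (23.9% of all genes). The edgeR test on recovered reads called 22 (10.8% of all genes).

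**Figure D2:**
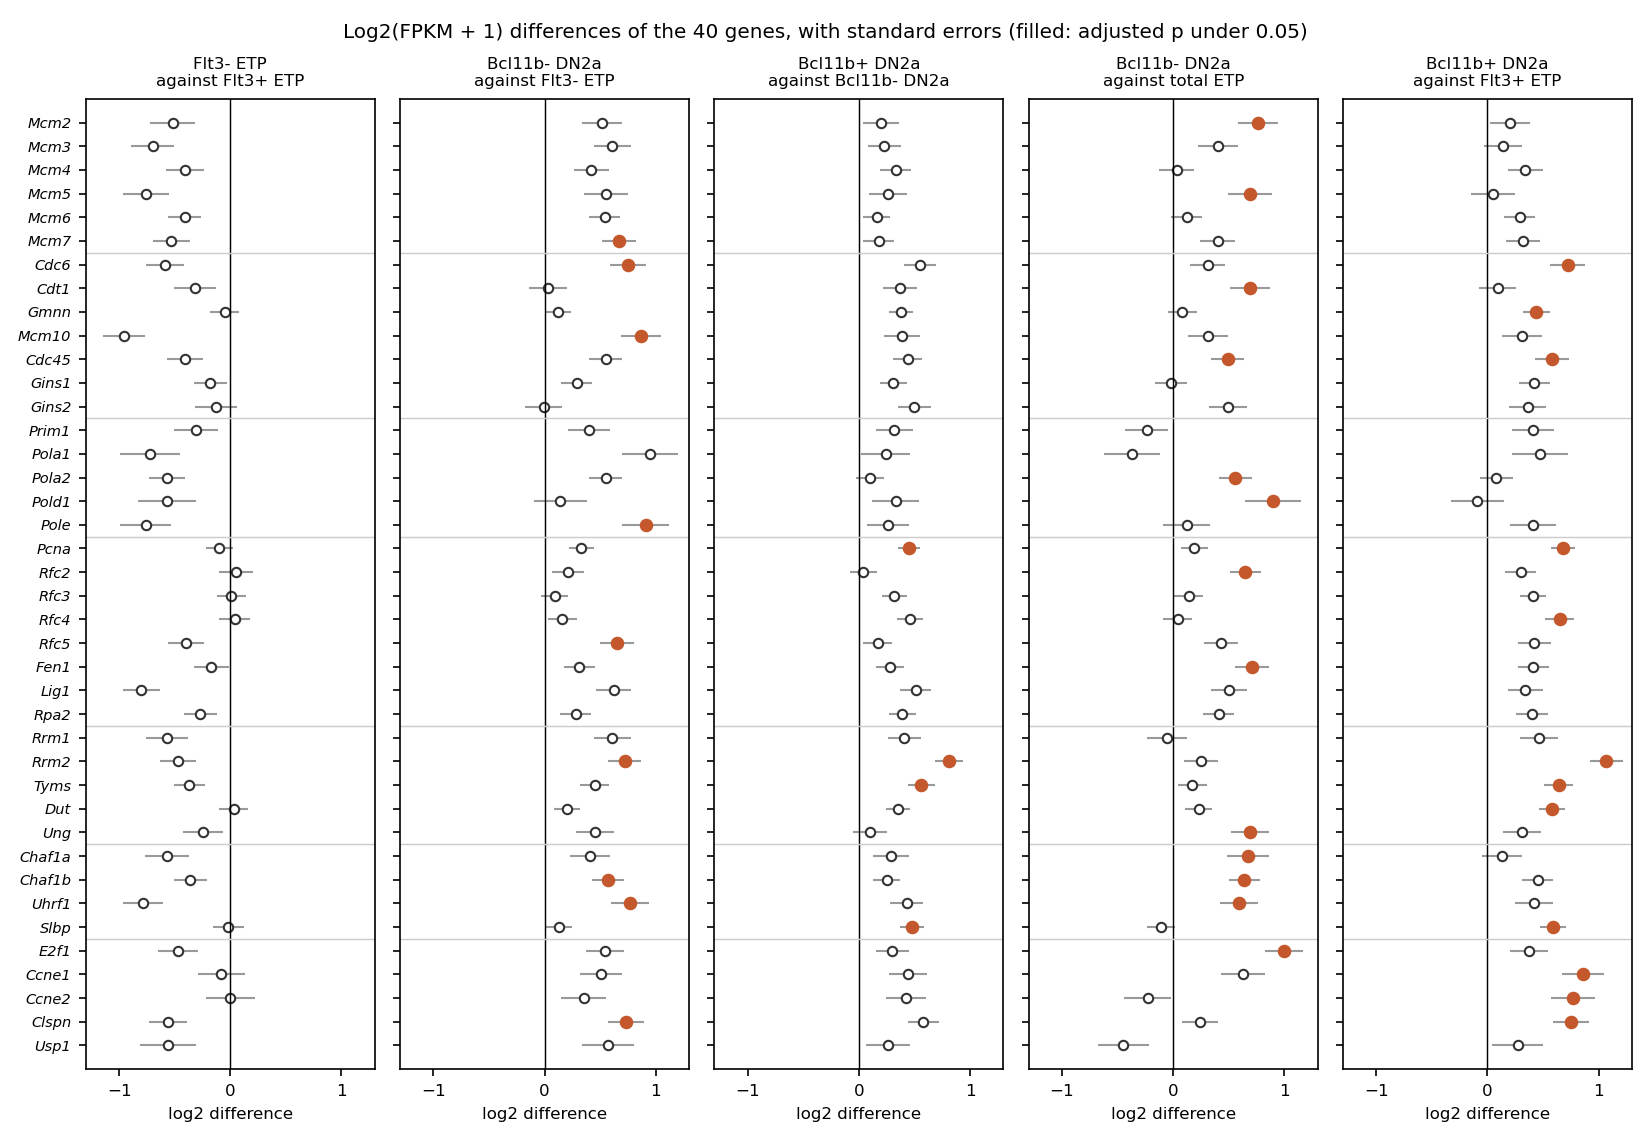
Differences of the 40 genes on the log2(FPKM + 1) scale (x axis) in 5 comparisons of bulk populations, with standard errors as bars and filled points for an adjusted p under 0.05. Grey lines separate the 7 roles, from the MCM helicase at the top to S-phase entry and checkpoint at the bottom, and no member is filled below 0 in any panel.

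Other genes of the same pathway were counted from fixed lists in the same fits. Of 36 further replication genes, 2 rose from Flt3- ETP to Bcl11b- DN2a (Gins3 by 0.86 ± 0.19, adjusted p = 0.0307, and Prim2 by 0.58 ± 0.15, adjusted p = 0.0496) and 0 fell. At this step 3.97% of all genes tested were called. None of the 36 passed from Bcl11b- to Bcl11b+ DN2a with limma (5 at an unadjusted p under 0.05; 1 passed with edgeR, 14 at an unadjusted p under 0.05, and 2 with limma and the block), although 33 differences were positive with a median of 0.25. With limma 2.79% of all genes tested were called between these 2 populations. An unadjusted p under 0.05 was reached by 1388 of all 12112 genes with limma and 1654 with edgeR. Against total ETP 3 of the 36 were higher in Bcl11b- DN2a, a smaller share than the 15.6% called over all genes tested. The list was split (16 positive, 20 negative, median -0.10). From Flt3+ ETP to Bcl11b+ DN2a 3 were higher, Prim2, Dscc1 and Orc6, a smaller share than the 11.3% called over all genes tested. The differences of 35 of 36 were positive there, with a median of 0.27. From Flt3+ to Flt3- ETP none passed with limma (13 at an unadjusted p under 0.05; 0 with edgeR, 9 at an unadjusted p under 0.05), with 31 of 36 negative. Over all 12112 genes, 2123 with limma and 1979 with edgeR had an unadjusted p under 0.05 there.

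Prim2, the large primase subunit, measured 16.8 and 40.7 FPKM in Flt3+ ETP, 13.03 and 36.3 in Flt3- ETP, 17.9 and 18.1 in total ETP, 21.03, 24.4 and 47.4 in Bcl11b- DN2a, and 27.4, 32.9 and 61.6 in Bcl11b+ DN2a. It was lowest in Flt3- ETP and highest in Bcl11b+ DN2a in each kit. Of 12 further nucleotide supply genes, 9 had a positive and 3 a negative difference from Bcl11b- to Bcl11b+ DN2a, and with limma Samhd1, which breaks down dNTPs, was the one that passed (2 of 12 with edgeR). It measured 24.8 and 10.01 FPKM in Flt3+ ETP, 17.4 and 13.2 in Flt3- ETP, 28.6 and 29.4 in total ETP, 21.5, 21.1 and 9.48 in Bcl11b- DN2a, and 9.52, 7.82 and 4.13 in Bcl11b+ DN2a. Bcl11b+ DN2a was lowest in each kit, and Samhd1 fell by 1.15 ± 0.16 on the log2 scale from Bcl11b- DN2a (limma, adjusted p = 0.0029). Dck, the deoxycytidine salvage kinase, measured 21.3 and 41.2 FPKM in Flt3+ ETP, 14.8 and 34.9 in Flt3- ETP, 27.8 and 30.7 in total ETP, 24.9, 36.1 and 53.6 in Bcl11b- DN2a, and 41.1, 59.7 and 78.7 in Bcl11b+ DN2a. It rose from Flt3- ETP to Bcl11b- DN2a by 0.80 ± 0.20 (adjusted p = 0.0496) and from Flt3+ ETP to Bcl11b+ DN2a by 1.08 ± 0.20 (adjusted p = 0.00385). Of 10 further chromatin assembly genes, Asf1b, a histone chaperone, passed from Bcl11b- to Bcl11b+ DN2a (0.84 ± 0.14, adjusted p = 0.00644), with 16.5, 13.5 and 40.3 FPKM before and 31.1, 26.5 and 67.4 after.

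Single cells from the whole gate were then staged by transcripts. The 10x libraries held 5006 and 8867 barcodes, of which 57 occur in both, and 4878 and 8434 cells passed the filters with medians of 8488.5 and 6137 UMIs. Each cell was thinned at random to 4000 UMIs, which left 4628 and 6978 cells (250 and 1456 were too shallow), and stages were read from the thinned UMIs. Cells with a UMI of Flt3 and none of Il2ra or Bcl11b numbered 229 and 390 (Flt3+ cells), those with Il2ra but no Bcl11b 1274 and 1676 (Il2ra+ Bcl11b- cells), and those with both 656 and 1057 (Il2ra+ Bcl11b+ cells). A further 2230 and 3412 cells had no UMI of any of the 3 genes. A cell without a UMI of a stage gene may still express it, so a stage by transcript is not the sorted stage. When stages were read from all UMIs of the same cells, 1064 and 1568 cells were Il2ra+ Bcl11b+. No doublet caller was run.

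The summed level of the 40 genes, as UMIs scaled to a common library total (CPM), was 2598.3 and 2429.5 in Flt3+ cells of libraries 1 and 2, 2879.5 and 2870.4 in Il2ra+ Bcl11b- cells, and 3344.5 and 3466.9 in Il2ra+ Bcl11b+ cells. With these stages from thinned UMIs the order was the same in both libraries, and the stages did not overlap. Cells with none of the 3 genes had 2422.6 and 2400.3. Per cell of 4000 UMIs, the median was 9 and 9 member UMIs in Flt3+ cells, 10 and 10 in Il2ra+ Bcl11b- cells, and 13 and 14 in Il2ra+ Bcl11b+ cells, with a 5th to 95th percentile of 2 to 29 for the last in library 1. Depth before thinning differed little between stages (medians of 8762.5 to 9206 UMIs in library 1 and 6510 to 6937 in library 2). The order of the first 2 stages did not hold in library 1 when stages were read from all UMIs of a cell. Summed levels were then 2739.1 and 2542.4 CPM in Flt3+ cells and 2716.3 and 2749.3 in Il2ra+ Bcl11b- cells.

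From Flt3+ to Il2ra+ Bcl11b- cells 3 of 40 genes rose and none fell, where 11.7% of all 10651 genes tested were called (edgeR's quasi-likelihood test on sums per library and stage, with the library as a term). They were Rrm2, Clspn and Uhrf1, and the median difference was 0.15 (log2) with 31 of 40 positive, against 0.00 over all genes. The share of members called was thus below that of all genes. Clspn measured 12 and 11.5 CPM in Flt3+ cells, 25.5 and 26 in Il2ra+ Bcl11b- cells, and 32.4 and 35 in Il2ra+ Bcl11b+ cells. Both libraries gave the same order without overlap, and the first step was 1.07 (adjusted p = 0.000614), although the Flt3+ sums rest on 11 and 18 UMIs. Rrm2 measured 38.2 and 32.1 CPM in Flt3+ cells, 55.5 and 59.1 in Il2ra+ Bcl11b- cells, and 69.4 and 80.7 in Il2ra+ Bcl11b+ cells. The stages were again apart in both libraries, with a first step of 0.68 (adjusted p = 0.000532). Of 26 mitosis genes, 8 fell at this step and none rose, with a median of -0.38. The member median did not keep its sign in the other settings given below.

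From Il2ra+ Bcl11b- to Il2ra+ Bcl11b+ cells 14 of 40 genes rose and none fell, where 12.4% of all genes were called. The median was 0.21 with 39 of 40 positive, against 0.00 over all genes. Uhrf1 measured 73.1 and 63.5 CPM in Flt3+ cells, 86.9 and 92.6 in Il2ra+ Bcl11b- cells, and 130 and 139.1 in Il2ra+ Bcl11b+ cells, a step of 0.56 between the last 2 (adjusted p = 1.27e-12). Pcna measured 108.1 and 91, then 141.3 and 107.2, then 186.4 and 151.6 CPM over the same stages, with a step of 0.42 (adjusted p = 6.16e-09). Within each library the 3 stages of Pcna were in order, and between libraries they overlapped. Dut measured 348.3 and 312.8, then 383.2 and 380.7, then 476.4 and 461.0 CPM, a step of 0.27 (adjusted p = 2.51e-07). Slbp measured 192.5 and 202.9 CPM in Il2ra+ Bcl11b- cells and 230.9 and 256.6 in Il2ra+ Bcl11b+ cells, a step of 0.28 (adjusted p = 1.61e-05), and the stages did not overlap. The other genes called were Gmnn, Rrm2, Mcm4, Tyms, Usp1, Pold1, Cdc6, Ccne2, Lig1 and Clspn. Mcm4 was the single MCM subunit among them, at 57.7 and 60 against 64.8 and 85.6 CPM.

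From Flt3+ to Il2ra+ Bcl11b+ cells 16 of 40 genes rose and none fell, where 19.7% of all genes were called. The groups are those of the 2 steps above. The median was 0.36 with 39 of 40 positive, against 0.00 over all genes, and the largest changes among the 16 were 1.44 for Clspn (adjusted p = 3.37e-07), 1.05 for Rrm2 (1.8e-09) and 0.92 for Uhrf1 (6.5e-13). Mcm7 was the gene with a negative value, at 115.7 and 103.8 CPM in Flt3+ cells and 129.6 and 106.4 in Il2ra+ Bcl11b+ cells, a fitted difference of -0.01 after scaling between libraries. Rfc2, at 160.5 and 134.6, then 171.1 and 176.5, then 163.9 and 171.7 CPM, was highest at the middle stage in both libraries and passed at neither step in the thinned counts. In unthinned counts it rose at the first step (0.24, adjusted p = 0.000271) and fell at the second (-0.11, adjusted p = 0.0415).

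**Figure D3:**
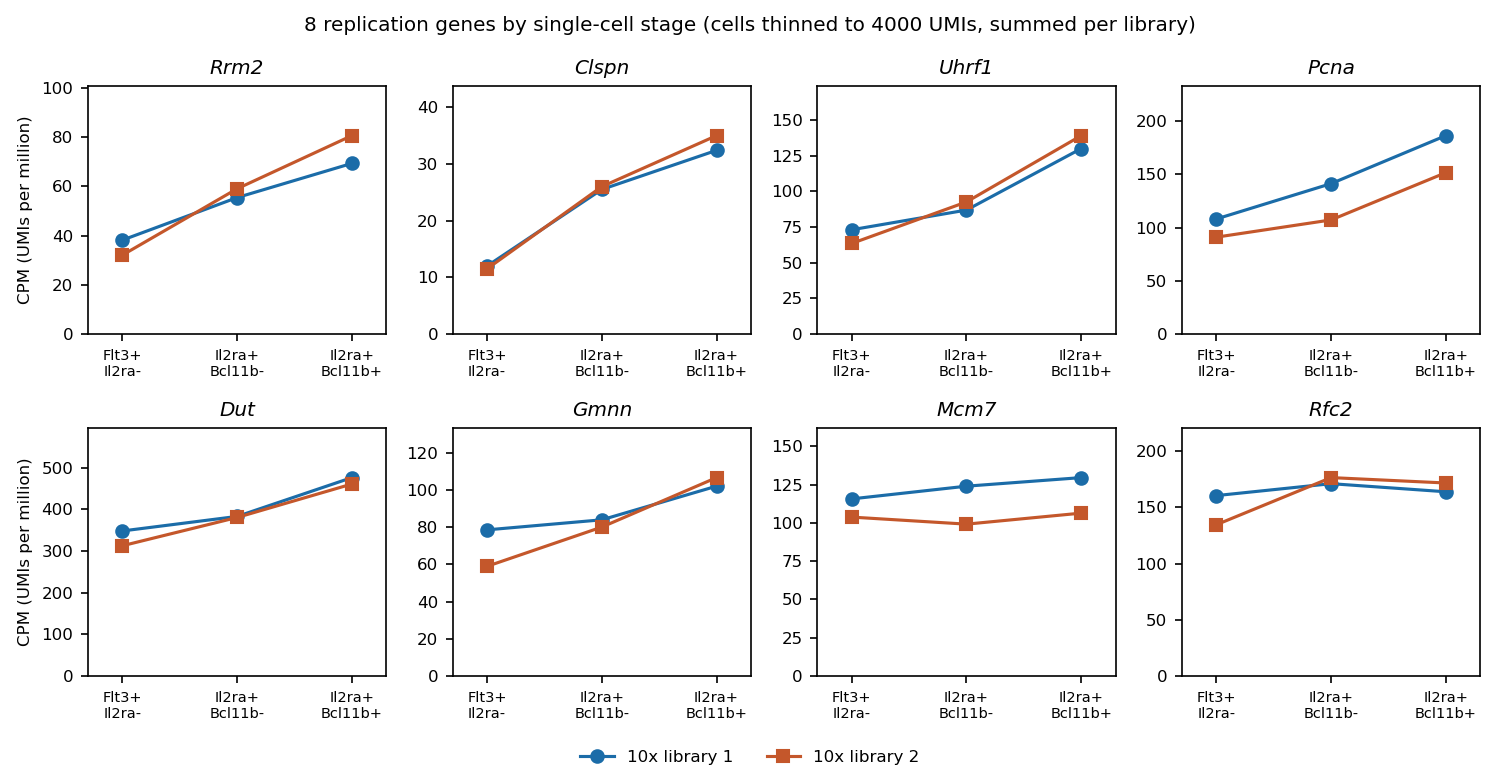
CPM of 8 replication genes in the 3 transcript stages of the 2 10x libraries (lines join the stages of a library), from cells thinned to 4000 UMIs and summed. Rrm2, Clspn, Uhrf1, Pcna, Dut and Gmnn rise to the Il2ra+ Bcl11b+ stage in both libraries, while Rfc2 is highest at the middle stage and Mcm7 has a fitted difference of -0.01 over the whole span.

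The single-cell counts depended on how deep the stages were read. When stages were taken from all UMIs of a cell and levels from the 4000 thinned UMIs, 1 gene rose at the first step (13.7% of all genes called; member median -0.04), 31 rose at the second (18.7%; 0.35) and 24 over both (24.3%; 0.35). When cells were thinned to 2000 UMIs, 0 passed at the first step (edgeR), 1 rose and 1 fell at the second with a median of -0.08, and 1 rose over both with a median of 0.11. In that setting 5.8%, 11.7% and 11.6% of all genes were called. Without thinning, 2 rose and 3 fell at the first step (median -0.01), 30 rose and 1 fell at the second (0.24) and 25 rose over both (0.20), where 20.6%, 26.3% and 33.9% of all genes were called. The second step and the whole span thus stayed positive in their medians in these settings except the second step at 2000 UMIs, and the first step did not keep its sign. Cd3 transcripts, a mark of later T cells, measured 1088.4 and 808.2 CPM in Il2ra+ Bcl11b+ cells and 64.4 and 85.6 in Il2ra+ Bcl11b- cells. Without any cell that had a Cd3 UMI, the counts were 2, 11 and 11 of 40, with medians of 0.08, 0.24 and 0.32, where 11.3%, 5.85% and 16.5% of all genes were called. Erythroid, megakaryocyte and mast cell genes measured 164.8 and 129.5 CPM in Flt3+ cells, 1361.9 and 923.3 in Il2ra+ Bcl11b- cells and 1000.4 and 679.8 in Il2ra+ Bcl11b+ cells, and their part was not tested.

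Among themselves the 40 genes differed along the cell cycle. Cells were ordered by the UMIs of 26 mitosis genes, none of which is a member, and put in classes of 0, 1, 2 to 4, 5 to 9, and 10 or more such UMIs. The summed member level rose from 1848.1 and 1923.9 CPM at 0 mitosis UMIs to 3818.4 and 3552.2 at 2 to 4, peaked at 4430.8 and 4209.4 at 5 to 9, and was 3301.2 and 3221.6 at 10 or more. The summed level of a list of replication-dependent and H2A.X/Z histone genes went on rising, from 1228.6 and 1379.7 at 0 to 5421.1 and 5361.0 at 10 or more. H2afz held most of this sum where it was read by stage, at 1767.5 of 2372.3 and 1891.0 of 2391.7 CPM in Flt3+ cells. The replication-dependent genes were not summed on their own. Each of the 40 genes was higher at 2 to 4 than at 0 mitosis UMIs in both libraries. From 2 to 4 to 10 or more, 20 genes were lower in both libraries, 11 were higher in both and 9 differed between libraries. The classes differed in depth before thinning, with medians of 7182.5 and 5784 UMIs in the lowest class and 12789 and 8925 in the highest, and the part of cell size or doublets was not tested.

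Genes of different roles had lower levels at high mitosis UMIs. Ung, the uracil glycosylase that removes uracil from DNA, measured 63.4, 85.1, 126.4, 88.1 and 15.1 CPM over the 5 classes in library 1 and 72.3, 100.3, 136.5, 95.4 and 13.1 in library 2. It was highest at 2 to 4 mitosis UMIs in both, and its level at 10 or more was 0.119 and 0.096 of that peak. Ccne1 stood at 3.4 and 5.1 CPM at 10 or more against 10.1 and 7.7 at 2 to 4, on 7 and 14 UMIs. The level at 10 or more was 0.432 and 0.549 of that at 2 to 4 for Mcm2, 0.535 and 0.525 for Cdc6, 0.394 and 0.691 for Chaf1b, and 0.555 and 0.551 for E2f1. Of the MCM subunits, Mcm2 to Mcm6 were lower at 10 or more in both libraries, while Mcm7 was higher in library 1 (136.5 against 130.7 CPM) and lower in library 2 (0.794 times). At the other end, Rrm1, the large subunit of ribonucleotide reductase, measured 28.6, 35.9, 62.3, 85.8 and 100.4 CPM in library 1 and 23.1, 36.4, 49.7, 91.4 and 87.7 in library 2. Its level at 10 or more was 1.61 and 1.76 times that at 2 to 4. Pold1 (1.45 and 1.28), Clspn (1.28 and 1.45), Cdc45 (1.23 and 1.40), Tyms (1.13 and 1.31) and Rrm2 (1.12 and 1.13) were also above their level at 2 to 4 in both libraries, as were Mcm10, Pola1, Pole, Rfc4 and Usp1. These ratios describe cells of 2 libraries and carry no test. With 5 bins of equal cell number, in which the lowest 2 hold tied cells, member levels were 1829.6 and 1937.9 in the lowest bin and 3794.1 and 3731.9 in the highest, and 14 genes were lower and 20 higher in the highest than in the fourth bin in both libraries.

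**Figure D4:**
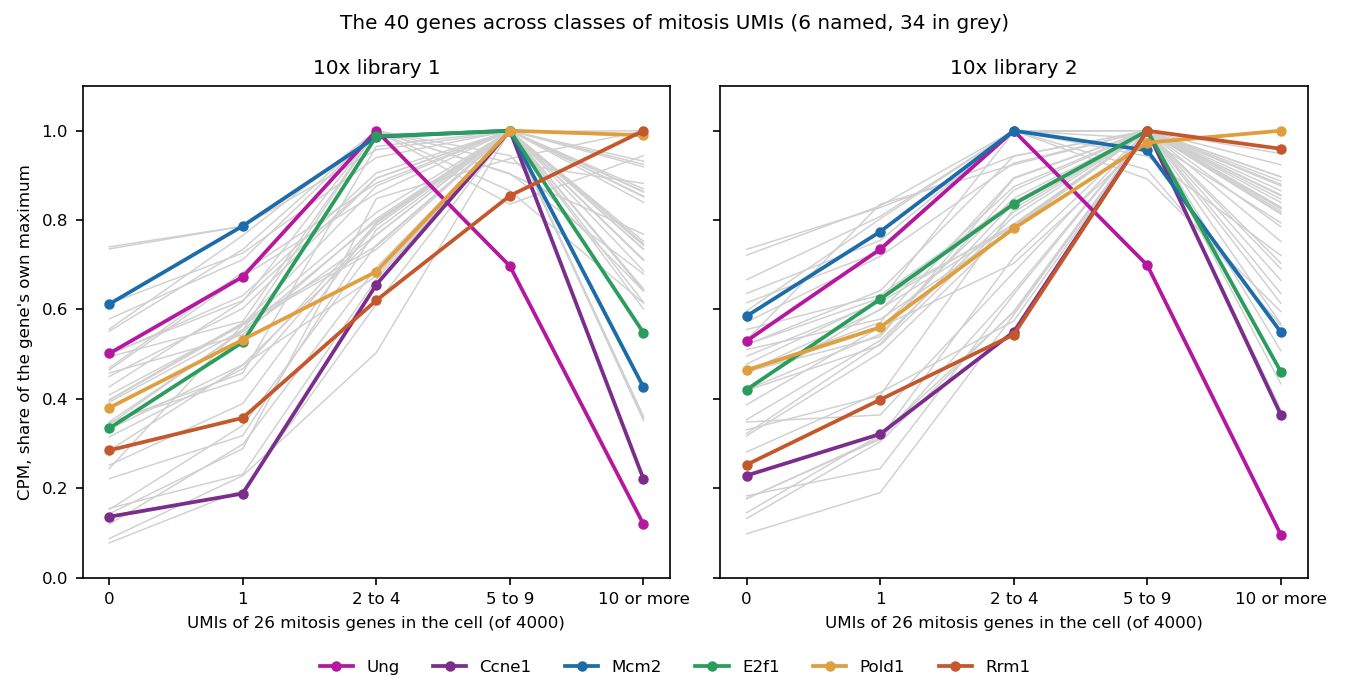
CPM of each of the 40 genes as a share of its own maximum (y axis) in 5 classes of mitosis UMIs (x axis), in the 2 10x libraries, with 6 genes in colour. Ung peaks at 2 to 4 mitosis UMIs and falls to 0.119 and 0.096 of that level at 10 or more, while Rrm1 and Pold1 stay near their maximum.

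On the C1 chip, 5 cells with fewer than 1000 genes over 1 FPKM were left out, and 92, 35 and 95 cells of the 3 runs of library numbers were kept. Each cell is 1 library and no animal is named, so each stage counts as 1 sample and no test was made. Of the 40 genes, the median cell had 27 over 1 FPKM among 65 Flt3+ cells, 19 among 94 Il2ra+ Bcl11b- cells, 33 among 29 Il2ra+ Bcl11b+ cells and 22 among 33 cells with none of the 3 genes. In this series of cells the Il2ra+ Bcl11b- stage was therefore the lowest of the first 3. This differed from the order of summed levels in 10x with stages read from thinned UMIs. The interquartile ranges overlapped (18 to 34, 11 to 33 and 18 to 38). In the first and last run of library numbers the medians were 25, 18 and 34, and 26, 17 and 31, while in the middle one, which held 13, 12 and 5 such cells, they were 33, 30.5 and 29. With the stage genes required over 5 FPKM, the medians were 27, 21.5 and 30. The median number of all genes over 1 FPKM also differed by stage (4705, 4507 and 5316), and the part of this difference in the member counts was not tested.

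Individual members are given gene by gene, chosen after their values were seen. Ccne1 was over 1 FPKM in 5 of 65 Flt3+ cells (7.7%, exact 95% interval 2.5% to 17%), 7 of 94 Il2ra+ Bcl11b- cells (7.4%, 3.0% to 14.7%) and 11 of 29 Il2ra+ Bcl11b+ cells (37.9%, 20.7% to 57.7%). The intervals cover counting error only. Clspn was over 1 FPKM in 29.2% (18.6% to 41.8%), 24.5% (16.2% to 34.4%) and 55.2% (35.7% to 73.6%) of these cells. Rrm2 was over 1 FPKM in 47.7% (35.1% to 60.5%), 31.9% (22.7% to 42.3%) and 51.7% (32.5% to 70.6%), with intervals that overlap. Pcna was found in most cells of each stage (98.5%, 89.4% and 100%), with median levels of 317, 222.1 and 596 FPKM. Sorted by how many of the 26 mitosis genes were over 1 FPKM, the cells with 0 to 6 had a median of 17 members, the 33 cells with 7 to 12 had 36, the 14 cells with 13 to 19 had 37 and the 29 cells with 20 to 26 had 34. In the same order, the median number of all genes over 1 FPKM was 4386.5, 4938, 5463.5 and 5833, and its part in these medians was not tested.

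**Figure D5:**
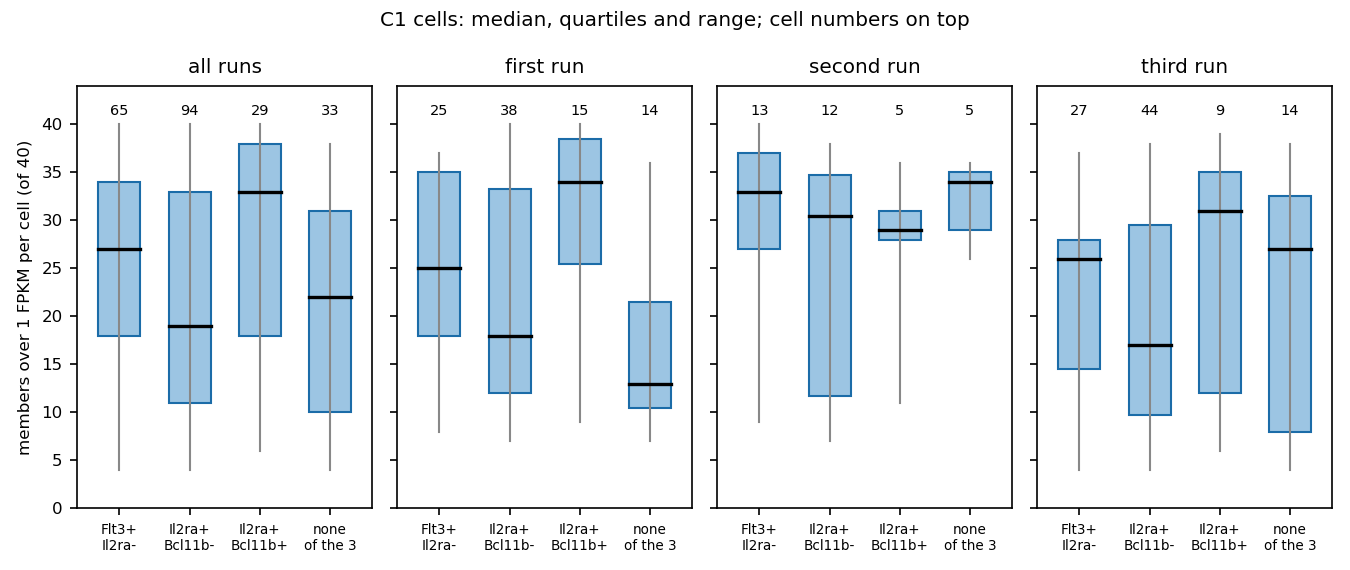
Number of the 40 genes over 1 FPKM per C1 cell (median line, box of the quartiles, line of the range) by transcript stage, over all runs and in each run of library numbers, with cell numbers on top. The Il2ra+ Bcl11b+ median (33) is the highest over all runs, but in the second run (5 such cells) it is 29, below the Flt3+ median of 33.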

How the data were processed

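Bulk values are FPKM as the authors deposited them, counted with HOMER from exon reads per the file headers. The C1 values are FPKM that the authors computed per cell, with STAR 2.4.0 and RSEM 1.2.25 on mm10 among the tools in the submitters' processing notes, and the 10x files hold UMI counts deposited by the authors from Cell Ranger 2.0, per the same notes. From these, log2(FPKM + 1) was fitted with limma 3.58.1 (population and kit as terms, all 12 libraries, genes over 1 FPKM in at least 2 libraries, Benjamini-Hochberg over all genes tested). Whole reads were recovered from the FPKM steps (100% of values whole within 0.1 reads) and tested with edgeR 4.0.16 as an alternative. For 10x, cells were kept from 1000 genes upward if mitochondrial genes took less than 10% of their UMIs, thinned to 4000 UMIs, summed per library and stage and tested with edgeR's quasi-likelihood test, with DESeq2 1.42.0 as an alternative. The scripts ran in Python 3.11.15 and R 4.3.3 and were tested on simulated data. C1 shares have exact binomial intervals.

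Values per library are given for up to 4 called members per comparison by smallest adjusted p, the 2 highest and 2 lowest by mean FPKM, at least 1 per role, and up to 4 called genes of each further list. The members, lists and this rule were chosen with earlier results of these data known. Library numbers were taken to pair Bcl11b+ with Bcl11b- DN2a, since deviations of same-numbered libraries from their population means correlated across genes (r = 0.912, 0.93 and 0.98; 0.561, 0.823 and 0.508 with the kit removed). Between differently numbered libraries of these 2 populations r was -0.869 to 0.548, and -0.644 to 0.359 with the kit removed. Same-numbered libraries here also share the kit and the run, so a pairing cannot be told apart from the run. The alternatives were other scalings, pseudocount, filters, blocks, tools, thinning and left-out libraries or cells. FPKM without spike-ins give shares of RNA, and thinning lowers the number of cells in which a stage gene is seen.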

Additional observations from a re-analysis of the deposited data

How the results depend on the processing

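Counts of members called in bulk are given in the order of the report (the loss of Flt3, the gain of CD25, the gain of Bcl11b, the comparison with total ETP, and the whole span), with 0, 9, 4, 13 and 12 as reported. They were 0, 5, 5, 14 and 11 with quantile normalization, 1, 8, 7, 17 and 17 with median-ratio scaling, 0, 10, 5, 13 and 12 with a pseudocount of 0.1, and 0, 4, 2, 4 and 12 with no filter. Without the kit term no member was called in any of them, and Uhrf1 turned to -0.16 against total ETP. The replicate block in place of the kit gave 3, 17, 11, 19 and 18, and the run of library numbers as the block 11, 18, 14, 4 and 17. Over all 12112 genes the replicate block called 273, 834, 582, 3857 and 1697, against 83, 481, 338, 1895 and 1370 as reported. Member counts are to be read beside the calls over all genes, which also moved with the setting. Outside Bcl11b+ against Bcl11b- DN2a, no more than 2 pairs of libraries share a number, some of them also the kit and the run, and that these are pairs was not established. With edgeR on recovered reads the counts were 0, 11, 7, 14 and 22, with NEBNext libraries alone 0, 12, 0, 0 and 5, without the first run 9, 2, 16, 22 and 19, and with only the 2 populations in the fit 13, 5, 1, 18 and 3. Leaving out 1 library in turn gave 0 to 15, 0 to 19, 1 to 1, 0 to 14 and 1 to 10. The lone library of a population is then assumed to vary like the others.

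Member medians moved less and kept their sign in every bulk setting. For Flt3- against Flt3+ ETP the median was -0.26 with median-ratio scaling, -0.3 with edgeR and -0.59 to -0.26 without 1 library. For Bcl11b- DN2a against Flt3- ETP it was 0.39 with quantile or median-ratio scaling, 0.42 without the kit term, 0.62 with NEBNext alone, 0.31 without the first run and 0.36 to 0.61 without 1 library. For Bcl11b+ DN2a against Flt3+ ETP it was 0.3 without the kit term and 0.57 with edgeR. The cause of these shifts was not tested.

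In 10x the 3 counts (3, 14 and 16 for the first step, the second step and the whole span) were 5, 31 and 25 without thinning, 0, 2 and 1 at 2000 UMIs, 1, 0 and 3 for cells of at least 4000 UMIs thinned to 2000, 1, 31 and 24 with stages from all UMIs, 5, 12 and 15 with no filter, 2, 4 and 9 with DESeq2, 2, 1 and 7 with no replicate block, and 6, 3 and 10 with Il2ra+ at 2 or more UMIs. Over all genes tested, 11.7%, 12.4% and 19.7% were called as reported. The shares without thinning, at 2000 UMIs and with stages from all UMIs stand with the 10x results above. Medians, in the same order of settings as far as they moved, were -0.01, 0.24 and 0.2 without thinning, 0.17, -0.08 and 0.11 at 2000 UMIs, -0.04, 0.35 and 0.35 with stages from all UMIs, and for the second step 0.15 for deeper cells thinned to 2000, 0.11 with Il2ra+ at 2 or more, 0.22 with DESeq2, median-ratio factors or no cells with granule UMIs, 0.21 with no replicate block or without the deepest 5% of cells and 0.24 without Cd3 cells. At 2000 UMIs the second step turned negative for Clspn (-0.11), Dut (-0.04), Gmnn (-0.02), Lig1 (-0.17), Rrm2 (-0.09), Tyms (-0.11) and Usp1 (-0.16), and the whole span for E2f1 (-0.05), Gmnn (-0.08), Pola2 (-0.28) and Ung (-0.14). For deeper cells thinned to 2000 it did so for Cdc6 (-0.51), Pcna (-0.02), Usp1 (-0.00) and, over the span, Pola2 (-0.13), and for Lig1 (-0.03) with Il2ra+ at 2 or more UMIs. Fewer cells hold a stage UMI at 2000 UMIs, and the stages from all UMIs, the deeper cells thinned to 2000 UMIs and the classes of mitosis UMIs were chosen after seeing the data. The ratio of member levels between the ends of the mitosis order was 2 in equal bins and 1.73 in classes. The C1 median for Il2ra+ Bcl11b- cells was 30.5 in the middle run against 19 over all runs.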

Other observations

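Of 14 E2F and pocket protein regulators, 1 rose from Bcl11b- to Bcl11b+ DN2a (2 with the replicate block). Over all genes tested 2.79% were called (4.81% with the block). E2f2, an activating E2F factor, measured 5.74, 4.33 and 0.787 FPKM in Bcl11b- DN2a and 14.1, 13.2 and 2.62 in Bcl11b+ DN2a, higher by 1.2 ± 0.18 (SE, limma, adjusted p = 0.00354). Each Bcl11b+ library stood above the Bcl11b- library of its number. E2f7, a repressing E2F factor, was lower in Bcl11b+ DN2a (1.07, 0.85 and 0.318 FPKM) than in Flt3+ ETP (2.53 and 1.32 FPKM), by -0.84 ± 0.16 (adjusted p = 0.00509). In 10x, E2f2 measured 7.5 and 5.4 CPM in Il2ra+ Bcl11b- cells and 9.1 and 14.4 CPM in Il2ra+ Bcl11b+ cells (edgeR, 0.93, adjusted p = 0.00224).

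The 4 Cdk inhibitors that could be tested in bulk did not all move the same way. Cdkn1b was lower in Bcl11b- DN2a than in total ETP, by -0.74 ± 0.19 (limma, adjusted p = 0.0279). In 10x Cdkn1b was lower in Il2ra+ Bcl11b- than in Flt3+ cells (edgeR, -0.72, adjusted p = 0.0375), but the libraries differed. In library 1 it measured 16.4 CPM in Flt3+ and 15.5 CPM in Il2ra+ Bcl11b- cells. In library 2 it measured 22.4 and 11 CPM, so the fall rested mostly on that library. Cdkn2d was higher in Bcl11b- DN2a than in total ETP, by 0.98 ± 0.2 (limma, adjusted p = 0.0112). Cdkn1a, which encodes p21, was called in 3 bulk comparisons, each time higher in DN2a. It measured 4.35 and 0.989 FPKM in Flt3+ ETP, 4.59 and 1.89 in Flt3- ETP, 0.883 and 0.619 in total ETP, 15.2, 8.52 and 12.8 in Bcl11b- DN2a, and 21.1, 15.03 and 20.1 in Bcl11b+ DN2a. Both DN2a populations lay above all 6 ETP libraries, and the rise from Flt3- ETP to Bcl11b- DN2a was 1.61 ± 0.36 (limma, adjusted p = 0.0303), where edgeR called 0 of the 4 inhibitors. In 10x, Cdkn1a stood at 24.9 and 32.8 CPM in Il2ra+ Bcl11b- cells and at 38.1 and 50.9 CPM in Il2ra+ Bcl11b+ cells (edgeR, 0.59, adjusted p = 1.92e-05). Cdkn2c, which encodes p18, rose from Bcl11b- to Bcl11b+ DN2a in bulk by 0.87 ± 0.18 (adjusted p = 0.025), with 5.15, 4.02 and 1.57 FPKM before and 11.3, 9.12 and 2.90 after, and at the same step in 10x (5.7 and 8.1 against 15.2 and 25.8 CPM, adjusted p = 1.23e-12). Of 11 histone genes, 7 were higher in Bcl11b- DN2a than in total ETP, among them Hist1h2ap by 1.97 ± 0.43 (adjusted p = 0.0151) and H2afx by 0.80 ± 0.16 (adjusted p = 0.0106). Over all genes tested 15.6% were called there. Hist1h2ap measured 44.7 and 30.2 FPKM in total ETP but 240.3 and 237.8 FPKM in the first-run libraries of Flt3+ and Flt3- ETP. In the other bulk comparisons no histone gene passed with limma (2, 2, 4 and 1 of 11 at an unadjusted p under 0.05 in the order of the report, and 0, 0, 0 and 1 with edgeR after adjustment). Over all 12112 genes, 2123, 3044, 1388 and 2788 had an unadjusted p under 0.05 with limma.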
